A study of Mus musculus with 6 samples.

Results

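The smooth muscle contractile apparatus was followed through 34 genes chosen by symbol: actins and myosins, proteins of the thin filament, the kinase and phosphatase of the myosin light chain, intermediate filaments, the transcription factors Myocd and Srf, and proteins of dense bodies and adhesion plaques. All 34 genes were found among the 20239 genes tested, with 1 probe set each. The samples came from double fluorescent C57BL/6J mice that carry αSMA-hrGFP, in which the rat promoter of α-smooth muscle actin drives green fluorescence, and NG2-DsRed, in which the Cspg4 promoter drives red fluorescence in vascular smooth muscle cells and pericytes. Bronchial smooth muscle cells (BSMCs) were sorted from digested lungs as CD45-, CD31-, hrGFP+ and DsRed- cells, so the sort itself selects for activity of an actin promoter, and this limits Acta2 as an independent measure. Adult OVA sensitized mice received intraperitoneal injections of 50 µg ovalbumin (OVA) in alum on days 0 and 7, control mice were sensitized with PBS, and both groups inhaled nebulized OVA on 5 days from day 14 to day 18 and were killed on day 19. Both groups therefore carried the same transgenes and the same airway challenge, and the exact age of the mice is not given in the sources used here. There were 3 control arrays, PBS 1, PBS 2 and PBS 3, and 3 arrays of OVA sensitized samples, OVA 1, OVA 2 and OVA 3, each made from 5 ng of amplified RNA. Per the methods each RNA sample was pooled from several mice after sorting, whereas the labels name single animals and microdissected muscle and give the OVA injections for every sample. The groups follow the sample titles.

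Smooth muscle contracts when calcium and calmodulin activate myosin light chain kinase, which phosphorylates the regulatory light chain and lets myosin pull on actin. Myosin phosphatase reverses this step, and inhibition of the phosphatase by RhoA signaling sustains tone without a further rise in calcium. Calponin, caldesmon, tropomyosin and transgelin coat the actin filament, and dense bodies and adhesion plaques anchor it to the cytoskeleton and the membrane. Serum response factor (Srf) and its cofactor myocardin (Myocd) drive the transcription of many of these genes through a short DNA element named the CArG box. In asthma, airway smooth muscle is the tissue whose shortening narrows the bronchi.

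The 5′ flanks of the members were read for the CArG box. The members were chosen by symbol and include genes known to be driven through this box, so its share among them is a description. RefSeq promoter windows on GRCm38.p6, from 250 bases before to 50 bases after a start site, were at hand for 30 of the 34 genes. Windows for Tagln, Myh11, Actg2 and Myocd were not used here. The box was read as 10 bases, CC, then only A or T, then GG, and boxes with a mismatch were not counted. This pattern, which reads the same on both strands, lay in the windows of 7 of the 30 genes, or 23.3%. In the whole table it lay in those of 488 of 27025 genes, or 1.81%. Counted by window, since some genes have several start sites, it lay in 22.2% of 36 windows and in 1.63% of 32851. The stretches around these boxes are shown 5′ to 3′ on the strand of the gene, with the box in capitals, to let the element be seen in genes whose log2 fold changes, given below, ran from -0.02 to 0.67.
Cnn2: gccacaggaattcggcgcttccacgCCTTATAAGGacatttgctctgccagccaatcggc
Myl9: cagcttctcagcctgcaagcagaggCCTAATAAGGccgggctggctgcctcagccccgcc
Myl6: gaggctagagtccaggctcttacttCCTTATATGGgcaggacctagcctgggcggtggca
Vcl: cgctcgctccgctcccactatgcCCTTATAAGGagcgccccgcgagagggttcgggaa
Ldb3: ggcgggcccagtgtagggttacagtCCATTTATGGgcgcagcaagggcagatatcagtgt
Srf: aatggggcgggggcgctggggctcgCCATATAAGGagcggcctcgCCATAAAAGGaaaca
Fhl1: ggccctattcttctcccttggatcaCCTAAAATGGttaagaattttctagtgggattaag
The stretch of Cnn2 lies at chr10:79988519-79988578 on the plus strand, that of Myl9 at chr2:156775278-156775337 (plus) and that of Myl6 at chr10:128493025-128493084 (minus). Those of Vcl and Ldb3 lie at chr14:20929148-20929205 (plus) and chr14:34588682-34588741 (minus), that of Srf at chr17:46556210-46556269 (minus), and that of Fhl1 at chrX:56779556-56779615 (plus). The boxes begin between 35 bases (Ldb3, from its nearer start site) and 227 bases (Vcl) before the start, and Srf has 2 of them, at 82 and 62 bases. Cnn2 and Vcl hold the same 10 bases. A match of letters describes the window and does not show that a factor binds there, and other sites of these genes were not examined.

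The deposited values are log2 levels made by the robust multi-array average (RMA), in which 1 unit is a 2-fold difference. Array medians lay between 6.758 and 6.815. OVA 2 stood apart: the first principal component held 61.2% of the variance, and the score of OVA 2 lay 78.8 units from the median of the other arrays, against 13.2 for the next array. The study left out 1 array of the OVA group as an outlier without naming it, so the main comparison sets PBS 1, PBS 2 and PBS 3 against OVA 1 and OVA 3, and all 6 arrays are given second. High levels tended to read lower and low levels higher on OVA 2, with a slope of -0.168 on level. Most contractile genes are high, and the part of this slope in their levels on OVA 2 was not tested. Genes of other cell types also gave signal, although levels of different probe sets cannot be set against each other. The mean of 12 fibroblast markers lay between 10.72 and 11.11, and the means of 10 epithelial markers between 7.28 and 8.59. Among the latter, Sftpc and Scgb1a1 stood between 11.34 and 11.76 on every array but OVA 2, and the other 8 had PBS means from 6.01 to 8.70. Notch3 (9.31 to 10.33) and Cspg4 (8.81 to 9.63), which mark the vascular cells that the gate on DsRed selects against, gave signal on all arrays. In such bulk samples fewer muscle cells and less mRNA per muscle cell cannot be told apart.

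The contractile genes were among the strongest signals on the arrays. Their mean levels on the PBS arrays had a median percentile of 97.5 among all genes, 30 of the 34 lay above percentile 90, and 25 had a level over 10. Vim, which encodes the intermediate filament vimentin of mesenchymal cells, came first at 12.51 ± 0.02 (SD, n = 3), followed by the LIM protein gene Csrp1 at 12.33 ± 0.10 and by Acta2, α-smooth muscle actin, at 12.13 ± 0.26. The lowest were Ldb3 at 7.87 ± 0.68 and Ppp1r12b, a targeting subunit of myosin phosphatase, at 7.49 ± 0.07. The order is one of array signal, since each probe set binds with its own strength, and is not an order of mRNA amount. Of 33 neighbouring pairs in this order, 28 had a gap under the larger of their SDs and so did not differ beyond their spread. The gaps larger than that were those between Vim and Csrp1, Acta2 and Fhl1, Myl6 and Tpm4, Cnn2 and Mylk, and Srf and Synm, the last at 1.19. On OVA 1 and OVA 3 the order was similar, and 6 genes moved by 5 ranks or more. Actg2, the enteric γ-actin of smooth muscle, went from rank 18 to 10, Myocd from 29 to 19 and Synpo2 from 27 to 20, while the nonmuscle myosin gene Myh10 went from 19 to 29, Tpm4 from 8 to 14 and the talin gene Tln1 from 21 to 27.

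**Figure D1:**
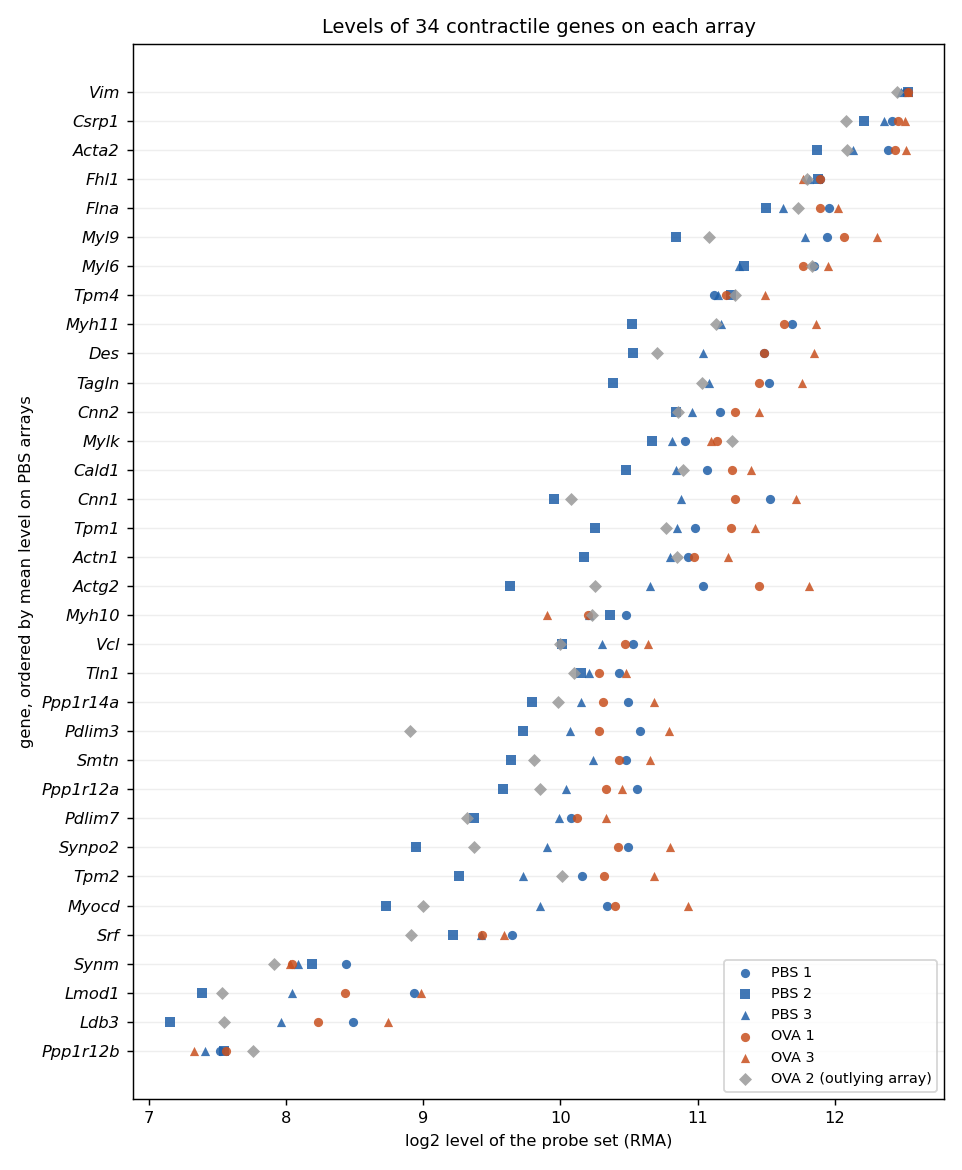
Log2 level (RMA, x axis) of the 34 contractile genes (y axis, ordered by their mean on the PBS arrays) on each of the 6 arrays, 1 point per array. PBS 2, the blue squares, is the leftmost of the 5 coloured arrays for 27 genes and OVA 3, the orange triangles, the rightmost for 27.

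Most contractile genes were higher in OVA sensitized samples by less than the PBS arrays differed from each other. With OVA 1 and OVA 3 set against the controls, 30 of the 34 genes were higher and 4 lower, with a median log2 fold change of 0.39 over the genes and of -0.02 over all genes tested. No contractile gene passed an FDR of 0.25 (limma, lowest adjusted p = 0.48), where 0.0395% of all genes did. At an unadjusted p under 0.05, 6 genes were higher, Actg2, Tpm2, Tpm1, Cald1, Cnn2 and Mylk, or 17.6% of the members beside 4.53% of all genes. None was lower, beside 4.78% of all genes, and none of the 34 had an unadjusted p under 0.01. OVA 1 and OVA 3 lay above every PBS array for 12 of the 34 genes, beside 11.9% of all genes, and below every PBS array for Myh10 and Synm, beside 16.8% of all genes. For 30 genes, or 88.2%, the range of the PBS arrays exceeded the absolute log2 fold change, as it did for 76.8% of all genes. The exceptions among the 34 were Mylk, Cnn2, Tpm4 and Myh10. The 95% confidence interval of 28 genes included 0.

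**Figure D2:**
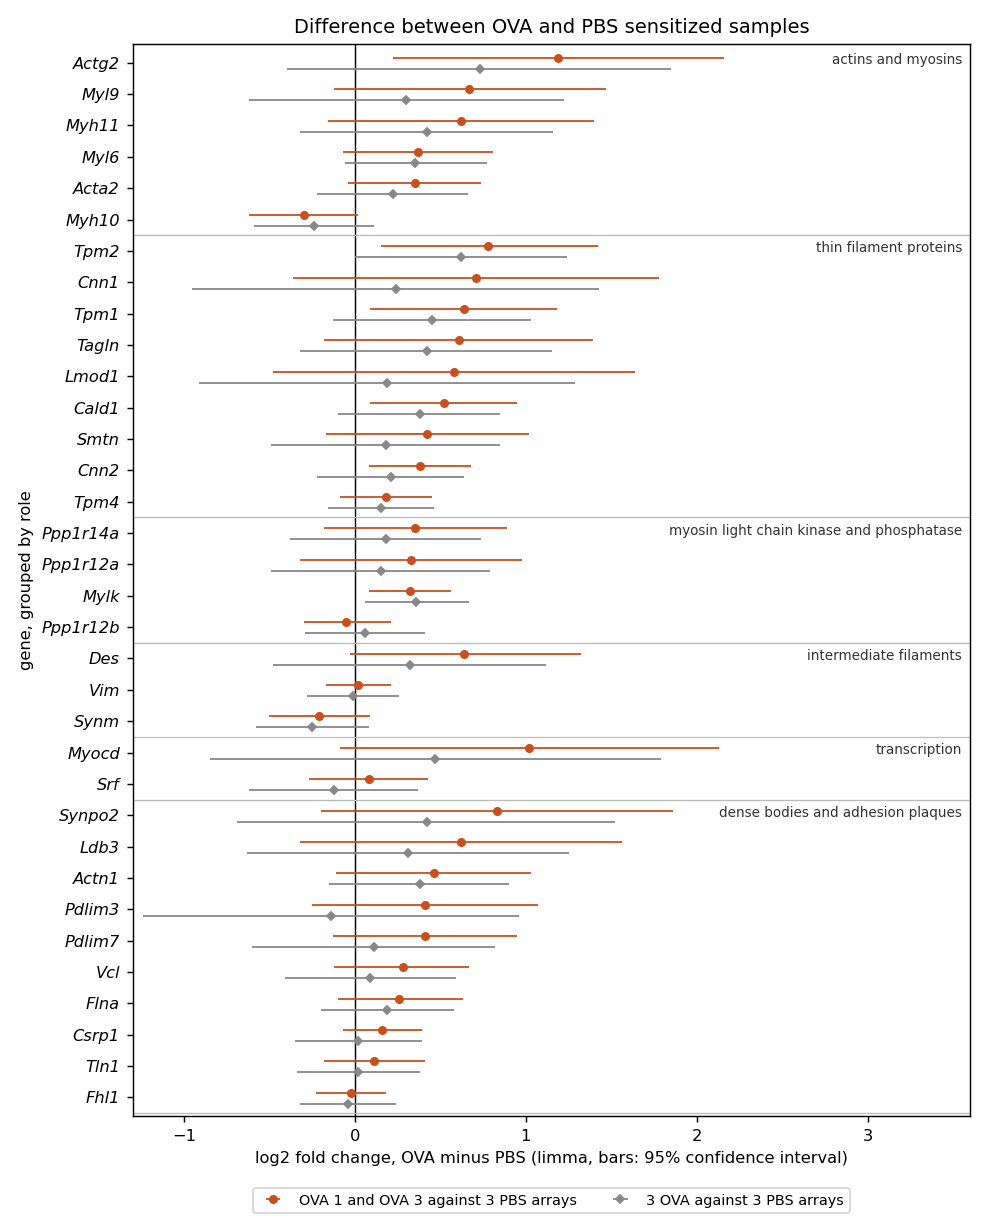
Log2 fold change, OVA minus PBS (x axis), of each contractile gene (y axis, grouped by role), with the 95% confidence interval of limma, for 2 OVA against 3 PBS arrays (orange circles) and for 3 against 3 (gray diamonds). Over 5 arrays the intervals of Actg2, Tpm2, Tpm1, Cald1, Cnn2 and Mylk lie wholly above 0, and over 6 arrays those of Mylk and Tpm2, the latter from 0.00.

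Among actins and myosins, 5 of 6 genes were higher and 1 passed an unadjusted p of 0.05, or 16.7% beside 4.53% of all genes. Actg2 (Entrez 11468) stood at 11.04, 9.63 and 10.65 on PBS 1, PBS 2 and PBS 3, at 11.45 on OVA 1, at 11.81 on OVA 3 and at 10.25 on OVA 2. Both OVA arrays of the main comparison were above the control arrays, and OVA 2 was within their range. The log2 fold change of 1.19 (standard error 0.398, unadjusted p = 0.024, FDR 0.505), 2.28-fold, was the largest of the 34. Acta2 (Entrez 11475), whose promoter the sort relies on, stood at 12.39, 11.87 and 12.13 on the PBS arrays, 12.44 on OVA 1, 12.52 on OVA 3 and 12.09 on OVA 2. Its groups did not overlap either, but OVA 1 exceeded PBS 1 by little (log2 fold change 0.35, standard error 0.159, unadjusted p = 0.0687, FDR 0.556). The actin genes have nearly identical coding sequences, so the levels of single actins are uncertain, and cross-hybridization was not tested. Of the further actins, named after their values were seen, the cardiac Actc1 ran from 10.56 on PBS 2 to 12.22 on OVA 3, the skeletal Acta1 from 7.52 to 8.05 and the cytoplasmic Actb from 12.55 to 12.68. Myh11 (Entrez 17880), the smooth muscle myosin heavy chain, stood at 11.69, 10.52 and 11.17 on the PBS arrays, 11.63 on OVA 1, 11.86 on OVA 3 and 11.13 on OVA 2. Here PBS 1 was above OVA 1, and the groups overlapped (log2 fold change 0.62, standard error 0.32, unadjusted p = 0.0983, FDR 0.577). The light chains gave 0.67 for Myl9, the regulatory chain that the kinase phosphorylates, and 0.37 for Myl6, the essential chain. Myl9 was at 10.84 on PBS 2 and at 11.78 to 12.31 on the other 4 arrays. Myh10, the heavy chain of a nonmuscle myosin, ran the other way, at 10.48, 10.36 and 10.21 on the PBS arrays against 10.20 and 9.90 on OVA 1 and OVA 3 (log2 fold change -0.30, standard error 0.131, unadjusted p = 0.0601, FDR 0.544).

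All 9 thin filament genes were higher on OVA 1 and OVA 3, with log2 fold changes from 0.18 to 0.78, and 4 passed an unadjusted p of 0.05, or 44.4% beside 4.53% of all genes. Tpm2 (Entrez 22004), which encodes a tropomyosin, stood at 10.16, 9.26 and 9.73 on the PBS arrays, 10.32 on OVA 1, 10.68 on OVA 3 and 10.01 on OVA 2. The difference was 0.78 (standard error 0.262, unadjusted p = 0.0237, FDR 0.503). Tpm1 (Entrez 22003), a further tropomyosin, stood at 10.98, 10.25 and 10.85 against 11.24 and 11.42, with 10.77 on OVA 2 (log2 fold change 0.64, standard error 0.222, unadjusted p = 0.0281, FDR 0.512). For Tpm1 and Tpm2 PBS 2 was the lowest of the 6 arrays, and OVA 1 exceeded PBS 1 by less than PBS 1 exceeded PBS 2. Cald1 (Entrez 109624), caldesmon, which restrains myosin on actin, had levels of 11.07, 10.48 and 10.84 against 11.25 and 11.39, and of 10.89 on OVA 2 (log2 fold change 0.52, standard error 0.178, unadjusted p = 0.0262, FDR 0.511). Cnn2 (Entrez 12798), a calponin that is also expressed outside muscle, had levels of 11.16, 10.84 and 10.96 against 11.27 and 11.45, and of 10.86 on OVA 2 (log2 fold change 0.38, standard error 0.122, unadjusted p = 0.0209, FDR 0.496). It is the only one of the 7 genes with a CArG box shown above that passed an unadjusted p of 0.05, and the others ran from -0.02 for Fhl1 to 0.67 for Myl9. The remaining thin filament genes had overlapping groups. Tagln (Entrez 21345), transgelin, was at 11.52, 10.38 and 11.08 on the PBS arrays, 11.45 on OVA 1, 11.76 on OVA 3 and 11.03 on OVA 2 (log2 fold change 0.61, standard error 0.321, unadjusted p = 0.107, FDR 0.585). Cnn1 (Entrez 12797), the calponin typical of differentiated smooth muscle, spanned more of the scale, at 11.53, 9.95 and 10.88 on the PBS arrays and 11.27 and 11.72 on OVA 1 and OVA 3, with 10.08 on OVA 2. PBS 1 was higher than OVA 1 for both, and the log2 fold change of Cnn1 was 0.71 with a standard error of 0.438 (unadjusted p = 0.155, FDR 0.625). Lmod1, leiomodin, which starts actin filaments, and Smtn, smoothelin, had log2 fold changes of 0.58 and 0.42, and Tpm4, the tropomyosin with the smallest PBS range of the 3, had 0.18. Tropomyosin, caldesmon and kinase genes make several splice forms, which 1 probe set per gene does not tell apart.

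Of the kinase and the phosphatase genes of myosin, 1 of 4 passed an unadjusted p of 0.05 as higher, or 25% beside 4.53% of all genes. Mylk (Entrez 107589), myosin light chain kinase, stood at 10.91, 10.67 and 10.81 on PBS 1, PBS 2 and PBS 3, at 11.14 on OVA 1, at 11.10 on OVA 3 and at 11.25 on OVA 2. It was the only contractile gene with all 3 OVA arrays above all 3 PBS arrays, beside 4.16% of all genes. The log2 fold change was 0.32 over 5 arrays (standard error 0.0996, unadjusted p = 0.0175, FDR 0.48) and 0.36 over 6 (standard error 0.129, unadjusted p = 0.0248, FDR 0.892), which is 1.25-fold over 5. Ppp1r14a (Entrez 68458), which encodes an inhibitor of myosin phosphatase, stood at 10.49, 9.79 and 10.15 on the PBS arrays, 10.31 on OVA 1, 10.68 on OVA 3 and 9.98 on OVA 2. Its groups overlapped (log2 fold change 0.35, standard error 0.22, unadjusted p = 0.16, FDR 0.629). The targeting subunit gene Ppp1r12a ran from 9.58 on PBS 2 to 10.56 on PBS 1, with both OVA arrays of the main comparison between them, and Ppp1r12b stayed between 7.33 and 7.76 (log2 fold changes 0.33 and -0.05).

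The intermediate filament genes went separate ways. Des, desmin, the filament of differentiated muscle, stood at 11.48, 10.53 and 11.04 on the PBS arrays and at 11.48 and 11.85 on OVA 1 and OVA 3 (log2 fold change 0.64, standard error 0.277, unadjusted p = 0.0588, FDR 0.543). OVA 1 equalled PBS 1 to the second decimal, so the groups touched. Vim lay between 12.45 and 12.53 on all 6 arrays, close to the highest level of any gene on these arrays, 13.05, and its difference was 0.02 (95% confidence interval -0.17 to 0.21). Synm, synemin, was lower on every OVA array, at 8.04, 7.91 and 8.03 against 8.44, 8.19 and 8.09 on the PBS arrays. The separation from PBS 3 was small (log2 fold change -0.21, standard error 0.12, unadjusted p = 0.135, FDR 0.608).

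Of the transcription factors, Myocd (Entrez 214384) varied most and Srf (Entrez 20807) little. Myocd stood at 10.34, 8.73 and 9.85 on PBS 1, PBS 2 and PBS 3, at 10.40 on OVA 1 and at 10.93 on OVA 3, and OVA 2 lay between PBS 2 and PBS 3. Its range of 1.60 over the PBS arrays was the largest of the 34 genes. The groups of the main comparison did not overlap, with OVA 1 just over PBS 1 (log2 fold change 1.02, standard error 0.456, unadjusted p = 0.0655, FDR 0.552). Srf stood at 9.65, 9.22 and 9.42 on the PBS arrays, 9.43 on OVA 1, 9.59 on OVA 3 and 8.91 on OVA 2. OVA 1 and OVA 3 were inside the PBS range and OVA 2 below it (log2 fold change 0.08, standard error 0.143, unadjusted p = 0.602, FDR 0.875).

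None of the 10 genes of dense bodies and adhesion plaques passed an unadjusted p of 0.05, although 9 were higher. At that cutoff 4.53% of all genes were higher and 4.78% lower. Synpo2, which encodes an actin-binding protein of the dense body, was at 10.49, 8.95 and 9.90 on the PBS arrays against 10.42 and 10.80 (log2 fold change 0.83, standard error 0.424). Ldb3, a PDZ and LIM protein of the same family as Pdlim3 and Pdlim7, had 0.62, Actn1, the α-actinin that crosslinks actin, 0.46, and Pdlim3 and Pdlim7 0.41 each. The genes of proteins that tie actin to integrins and the membrane had 0.28 for Vcl, vinculin, 0.26 for Flna, filamin A, and 0.11 for Tln1, talin. Among the LIM proteins, Csrp1 had 0.16 and Fhl1, which stood between 11.77 and 11.89 on all 6 arrays, -0.02. The groups of Actn1, Pdlim7 and Csrp1 did not overlap.

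Most of the contractile genes shared an order of the arrays, within the groups as well as between them. The mean level of the 34 genes was 10.77, 10.06 and 10.45 on PBS 1, PBS 2 and PBS 3 and 10.73 and 10.93 on OVA 1 and OVA 3, so PBS 1 was above OVA 1. PBS 2 was the lowest of these 5 arrays for 27 genes and OVA 3 the highest for 27, against 4284 and 4825 of all 20239 genes. The order PBS 2, PBS 3, PBS 1 from low to high held for 27 genes, or 79.4% of them and 17.3% of all genes. PBS 1 exceeded PBS 2 by more than 1 log2 unit for 9 genes, or 26.5% of them and 0.632% of all genes. The median range over the PBS arrays was 0.71 for the contractile genes and 0.21 for all genes. OVA 3 exceeded OVA 1 for 29 genes, or 85.3%, against 50.1% of all genes. OVA 1 exceeded PBS 1 for 16 of the 34 genes and for 9456 of all 20239, a similar share. OVA 3 was above every PBS array for 28 genes, or 82.4% of them and 27.1% of all genes, whereas OVA 1 was above every PBS array for 14, or 41.2% and 22%.

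**Figure D3:**
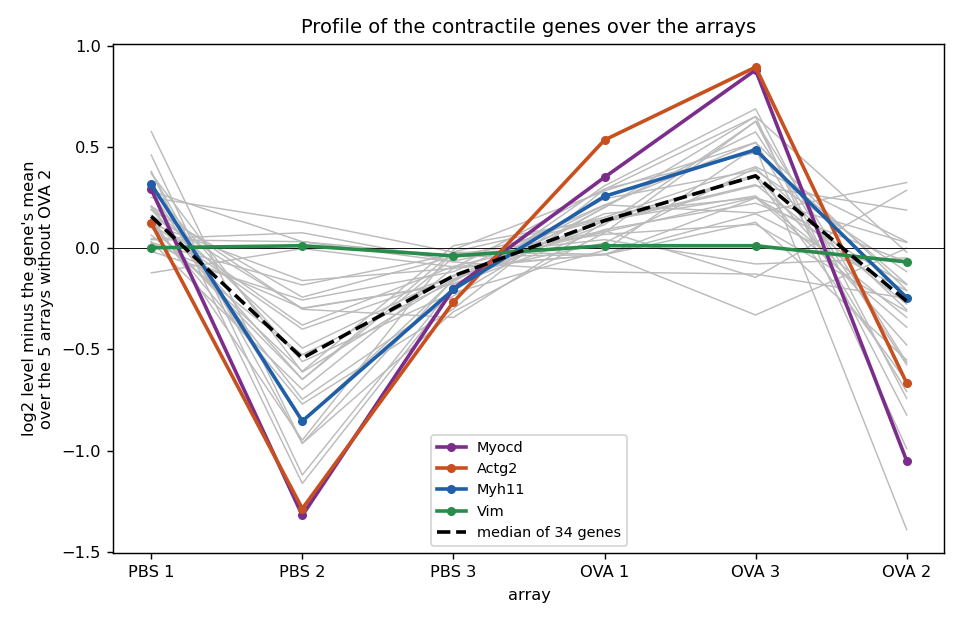
Log2 level of each contractile gene minus its mean over the 5 arrays without OVA 2 (y axis) on each array (x axis), with 34 gray lines, their median dashed and Myocd, Actg2, Myh11 and Vim in color. Lines join the points of a gene and stand for no order in time. PBS 2 is a shared low point, PBS 1 and OVA 1 lie close together, and Vim is flat.

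Genes that differed most between the control arrays also differed most between OVA 1 and OVA 3. Across the 34 genes the difference PBS 1 minus PBS 2 and the difference OVA 3 minus OVA 1, which share no array, had a Pearson correlation of 0.79, against 0.09 across all genes. Other lists of muscle and pathway genes also had positive correlations. The values were 0.93 for 5 further genes of smooth muscle, 0.75 for 27 adhesion and membrane plaque partners and 0.72 for 12 genes of cardiac and skeletal muscle. They were 0.68 for 14 Srf cofactors and antagonists and 0.63 for 11 markers of vascular smooth muscle and pericytes. The lowest were 0.59 for 20 nonmuscle and striated muscle relatives and 0.47 for 16 genes of RhoA and calmodulin signaling. Genes are not independent replicates, all were measured in the same samples, and the value is a description. Both differences were taken along the array order given above, so the sign of the correlation is not independent of that order. Myocd, Cnn1, Lmod1, Synpo2, Actg2 and Ldb3 were far out on both, with PBS 1 minus PBS 2 between 1.34 and 1.60 and OVA 3 minus OVA 1 between 0.36 and 0.54. Myh11 had 1.17 and 0.23, and Acta2 0.53 and 0.08. Vim, Fhl1, Ppp1r12b and Tpm4, with a PBS range under 0.2, stood apart from this, with PBS 1 minus PBS 2 between -0.12 and 0.01.

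**Figure D4:**
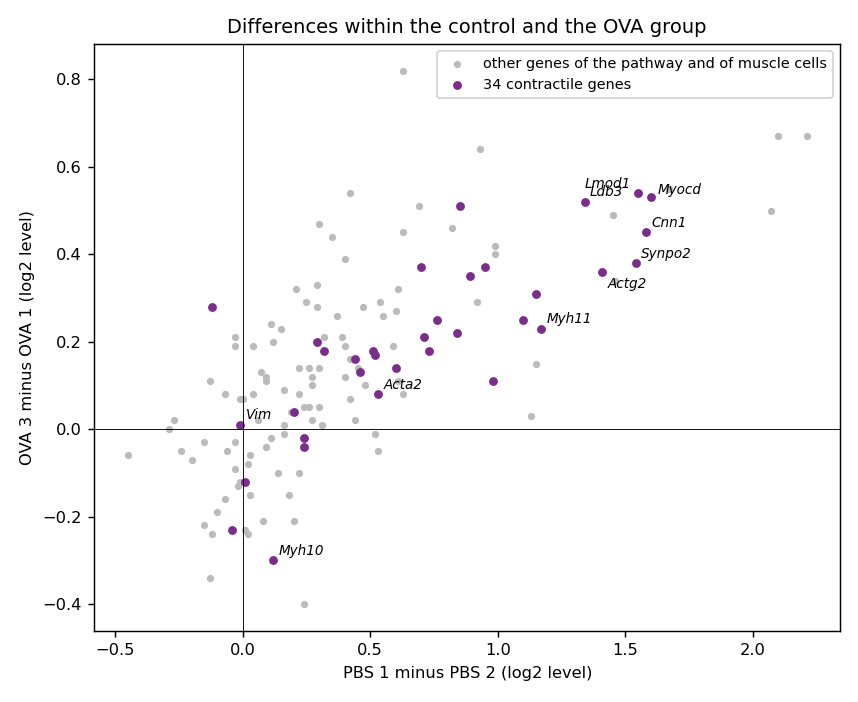
Difference between the control arrays PBS 1 and PBS 2 (x axis, log2) against the difference between OVA 3 and OVA 1 (y axis, log2), for the 34 contractile genes (purple) and other genes of the pathway and of muscle cells (gray). The purple points run from Vim, near 0 on both axes, to Myocd and Lmod1 at over 1.5 and over 0.5.

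Because of this spread, the count at an unadjusted p under 0.05 depended on single arrays. Without PBS 1, 25 contractile genes were higher at that cutoff, beside 4.1% of all genes, and the median log2 fold change was 0.56. With PBS 2 left out the count was 6, beside 3.36%, the median was 0.22 and the log2 fold change of Actg2 was 0.78. Without PBS 3 the genes were Actg2, Tpm1 and Mylk, beside 5.42% of all genes, and without OVA 1 they were Cnn2, Tpm2 and Tpm4, beside 5.43%. In both of these Myh10 also passed as lower, at -0.37 and -0.45. With OVA 3 left out none passed, beside 1.68%, although 31 of the 34 genes were still higher and the median was 0.31. An FDR of 0.25 was reached by no contractile gene with any of these arrays left out.

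Over all 6 arrays the shift was smaller, because most contractile genes were lower on OVA 2 than on OVA 1 and OVA 3. The log2 fold changes had a median of 0.20, against 0.03 for all genes, with 28 genes higher and 6 lower. Tpm2 (0.62, standard error 0.264, unadjusted p = 0.0493) and Mylk passed an unadjusted p of 0.05 as higher, beside 1.44% of all genes, and none was lower at that cutoff, beside 3.1% of all genes. The lowest FDR was 0.892, where 0.00494% of all genes passed 0.25. Only Mylk had groups without overlap in the higher direction, beside 4.16% of all genes, and only Synm in the lower, beside 7.83%. OVA 2 was below both OVA 1 and OVA 3 for 28 of the 34 genes, and for 8288 of all 20239. It lay within the PBS range for 22, below it for 9 and above it for 3. Over all genes these counts were 3374, 7625 and 9240. Pdlim3 was the farthest below, at 8.90 against 9.73 to 10.58 on the PBS arrays, and its log2 fold change turned from 0.41 to -0.14.

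The lists of other genes of the pathway had medians between 0.02 and 0.17. Of 16 measured genes that signal from RhoA and calmodulin to myosin, 9 were higher and 7 lower with a median of 0.09, and 3 passed an unadjusted p of 0.05 as lower, beside 4.78% of all genes. The smallest p among them was that of Prkce, a protein kinase C that can act on the phosphatase inhibitor (log2 fold change -0.40, standard error 0.104), and among the higher genes that of Ilk, integrin-linked kinase (0.31, standard error 0.127). The 20 measured nonmuscle and striated muscle relatives of the members had a median of 0.02. At an unadjusted p under 0.05 none was higher and 2 were lower, beside 4.53% and 4.78% of all genes. Myh14, a nonmuscle myosin heavy chain, gave -0.30 and Tpm3, a tropomyosin, 0.26. Among 14 cofactors and antagonists of Srf the median was 0.04, with Fhl2, a LIM protein that binds Srf, at 0.53 (7.44, 7.15 and 7.26 on the PBS arrays against 7.58 and 8.05) and Klf4, a repressor of the contractile program in vascular muscle, at -0.41 (9.68, 9.65 and 9.98 against 9.44 and 9.29). Klf4 was also lower than every PBS array on OVA 2, at 9.14. Of 27 measured partners in adhesion and membrane plaques, 17 were higher with a median of 0.17. At that cutoff 3 passed as higher, or 11.1% beside 4.53% of all genes, and 1 as lower, beside 4.78%. Tgfb1i1, a paxillin-like adaptor of smooth muscle, had 0.49 and Sorbs3, vinexin, which binds vinculin, -0.36 (standard errors 0.147 and 0.0839). None of the genes in these 4 lists passed an FDR of 0.25.

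Markers of other cells also differed between the arrays, and their part in the result was not tested. PBS 2, the array with the lowest contractile levels, had the highest mean levels of endothelial markers (9.55, against 8.77 and 8.81 on PBS 1 and PBS 3 and 8.65 and 8.67 on OVA 1 and OVA 3) and of mesothelial markers (8.37 against 7.00 to 7.51 on those arrays). The mean of OVA 1 and OVA 3 was under that of the PBS arrays for all 9 endothelial markers, with a median log2 fold change of -0.40. Both arrays lay below every PBS array for 5 of the 9, beside 16.8% of all genes. For 9 of 10 epithelial markers the mean of OVA 1 and OVA 3 was also under that of the PBS arrays, with a median of -0.48. Of the 10, 6 passed an unadjusted p of 0.05 as lower over 5 arrays, beside 4.78% of all genes. Over all 6 arrays the count was also 6, beside 3.1% of all genes. Krt8, a keratin gene, had the smallest p of these (log2 fold change -0.71, unadjusted p = 0.00209, FDR 0.48). Pecam1, which encodes the CD31 of the gate, was at 9.44 on PBS 2 and between 8.48 and 8.69 on the other 4 arrays, and Epcam, an epithelial adhesion gene, was low throughout, at 5.48 to 6.15. Leukocyte markers went the way of the contractile genes between groups but not within the control group. All 10 were higher, with a median of 0.66, but their mean was 7.10 on PBS 1, 8.13 on PBS 2 and 8.06 on PBS 3, and 8.24 and 8.59 on OVA 1 and OVA 3. Ptprc, which encodes CD45, stood at 6.84, 8.10 and 7.77 against 8.09 and 8.31. The 11 markers of vascular smooth muscle and pericytes had means of 9.07, 8.54 and 8.79 against 8.77 and 9.06, with PBS 2 again the lowest of the 5 and a median log2 fold change of 0.09. Rgs5, a pericyte gene, was higher at 1.13 (standard error 0.197, unadjusted p = 0.00111, FDR 0.413), while Abcc9 was lower at -0.44 and Notch3 differed by -0.16. Fibroblast markers had means of 10.81, 11.04 and 10.98 against 10.94 and 10.72, the highest of the 5 on PBS 2. The means of 12 markers of cardiac and skeletal muscle lay between 6.68 and 6.96 on all arrays.

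**Figure D5:**
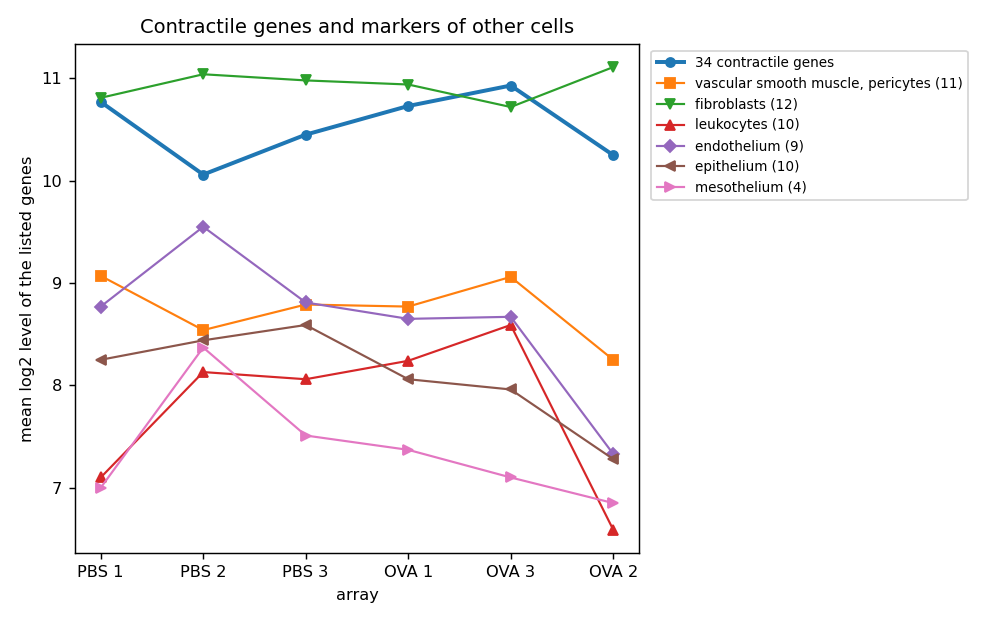
Mean log2 level (y axis) of the 34 contractile genes and of 6 lists of markers of other cells (number of genes in brackets) on each array (x axis). Lines join the points of a list and stand for no order. On PBS 2 the contractile mean is at 10.06, its lowest, and the endothelial mean at 9.55, its highest.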

How the data were processed

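BSMC RNA of 3 PBS sensitized control and 3 OVA sensitized samples had been hybridized to whole-transcript mouse arrays, 1 array per sample. The deposited values are log2 levels per probe set, which the authors background corrected, normalized and summarized by RMA over all arrays. The affy package stands in the submitters' processing notes and oligo in the methods, for which no version or genome build is given in the sources used here. The probe sets carry Entrez identifiers, unlike the Affymetrix identifiers of the methods. Levels ran from 1.91 to 13.05. The naming table gave a single symbol to 20239 of the 21225 probe sets, all of them tested, several symbols to 0 and none to the other 986. Arrays have no read depth, and their number limits the precision.

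Values were used as deposited. Differences, OVA minus PBS, were fitted in R 4.3.3 by limma 3.58.1 (lmFit, then eBayes, with statmod 1.5.0 for robust variance). Its two-sided p-values were adjusted by Benjamini and Hochberg's FDR over all 20239 genes. An FDR under 0.25 is the cutoff of the methods. Counts at an unadjusted p under 0.05 and under 0.01 were added. The array left out of the main comparison was the OVA array farthest from the median of the others on the first principal component. Exact permutation of 3 arrays against 2 or 3 cannot give a two-sided p under 0.1. Nothing in the values shows whether the pools were independent of shared handling, so p-values measure the spread between these samples. The fit was tested on simulated data.

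All 34 members are named. Full values are given for Acta2, Actg2, Myh11, Tagln, Cnn1, Mylk, Ppp1r14a, Myocd, Srf and every member at an unadjusted p under 0.05. Of each of the 4 lists of other pathway genes, the gene with the smallest p in each direction is named, and Notch3, Cspg4, Rgs5, Ptprc, Pecam1 and Epcam stand for other cells. Abcc9, Krt8, Sftpc and Scgb1a1 were named after their values were seen, as were the further actins. Members, lists and rules were chosen with earlier results of these data known. Lists were described by counts and medians, beside the same over all genes. Some other genes of the pathway were not analysed here.

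Alternative settings were the 6 arrays together, weighted or not, each array left out in turn (a lone OVA array is then assumed to vary like the controls), quantile normalization or median centring on top, no genes under percentile 25 of median level, an intensity trend with robust variance, and the replicate number as a block. Gene by gene estimation of the weights, because the default did not converge, and quantile normalization of all 6 arrays were added after seeing the data.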

Additional observations from a re-analysis of the deposited data

How the results depend on the processing

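The number of contractile genes higher at an unadjusted p under 0.05 was 6 in the main comparison. It was 2 over all 6 arrays, 3 with the replicate block and 0 to 25 with an array left out, and the number lower was 0 to 1. The number of all genes at an FDR under 0.25 was 8, and it was 1 over all 6 arrays, 563 with array weights, 1 without genes under percentile 25, 38 with the replicate block and 0 to 68 with an array left out. Array weights also brought 1 contractile gene, Mylk, under an FDR of 0.25 (0.236), but OVA 2 had a weight of 0.0852 in that fit. Over all 6 arrays, where 2 contractile genes and 1 gene in all passed, the numbers were 4 and 3 with quantile normalization, 2 genes in all with the replicate block, and 0 to 6 and 0 to 8 with an array left out. The median log2 fold change stayed between 0.22 and 0.56 in the alternatives without OVA 2 and between 0.00 (without PBS 2) and 0.39 over 6 arrays.

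The sign of some members turned. In the main comparison these were Ppp1r12b (0.06 over 6 arrays, 0.02 with weights, -0.16 to 0.07 with an array left out), Vim (-0.01 over 6 arrays, -0.02 with quantile normalization), Srf (-0.12 over 6 arrays, -0.03 with the replicate block, -0.03 to 0.19 with an array left out), Fhl1 (0.01 with weights, -0.09 to 0.04) and Pdlim3 (-0.14 over 6 arrays). Over 6 arrays, leaving out an array gave ranges of -0.04 to 0.67 for Myl9, -0.18 to 0.71 for Cnn1, -0.17 to 0.60 for Lmod1, -0.06 to 0.42 for Smtn, -0.09 to 0.40 for Ppp1r12a, -0.05 to 0.17 for Ppp1r12b, -0.02 to 0.02 for Vim, -0.26 to 0.08 for Srf, -0.54 to 0.41 for Pdlim3, -0.11 to 0.41 for Pdlim7, -0.06 to 0.16 for Csrp1, -0.05 to 0.62 for Ldb3, -0.04 to 0.28 for Vcl and -0.08 to 0.11 for Tln1. With an array left out, the turns of the main comparison came without OVA 3 (Ppp1r12b, Srf, Fhl1) or PBS 2 (Srf), and most of those over 6 arrays came without PBS 2 or OVA 3. The cause was not tested.

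Deviations from the group means over all 6 arrays had correlations of -0.11, -0.036 and 0.015 between samples of the same number. The outlying OVA 2 enters the mean of its group, so these values cannot decide whether samples of the same number had anything in common. PBS 2 has no partner in the block once OVA 2 is left out, so its log2 fold changes are those without PBS 2. No contractile gene passed an FDR of 0.25 in any alternative without weights.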

Other observations

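The array order of the contractile genes was also present in other lists of muscle and adhesion genes. The order PBS 2, PBS 3, PBS 1 from low to high held for 19 of 27 adhesion and membrane plaque partners, or 70.4%, for 4 of 5 further genes of smooth muscle and for 7 of 11 markers of vascular smooth muscle and pericytes, beside 17.3% of all genes. Itga8 was counted in both of the first 2 lists. The order held for fewer in other lists, at 6 of 16 genes of RhoA and calmodulin signaling, 5 of 14 Srf cofactors and antagonists and 5 of 20 nonmuscle and striated muscle relatives. It held for 5 of 12 genes of cardiac and skeletal muscle, where Actc1 was counted again. It held for none of the markers of fibroblasts, leukocytes, endothelium, epithelium and mesothelium. Some genes with a wide range, picked here after their values were seen, show the size. Sgca, which encodes α-sarcoglycan of the muscle membrane, stood at 8.82, 6.61 and 7.87 on PBS 1, PBS 2 and PBS 3 and at 8.58 and 9.25 on OVA 1 and OVA 3. Kcnmb1, the β subunit of a calcium-activated potassium channel of smooth muscle, stood at 10.40, 8.30 and 9.71 against 9.97 and 10.64. Hey2, a transcriptional repressor of the Notch pathway, stood at 9.78, 7.71 and 8.92 against 8.89 and 9.39, and here both OVA arrays were below PBS 1. Of the further genes of smooth muscle, Npnt kept the order over a small range (11.20, 10.96 and 11.19) and Hhip did not (11.81, 11.65 and 11.62). None of these 5 named genes passed an unadjusted p of 0.05 between groups.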
